A study of Mus musculus with 4 samples.

Results

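The 44 genes described here are autosomal genes of the mouse that are known to be imprinted, taken by symbol from a fixed list and found in both deposited tables, which hold 49671 genes each. They fall into 19 domains, a domain being a single gene or a cluster under shared control. The RNA came from splenic CD3+ T cells of female F1 mus x cast mice, in 4 libraries labelled as biological replicates of the same group, and whether each came from a single animal is not stated. The mothers were C57BL/6 mice with a heterozygous Xist deletion and the fathers Mus musculus castaneus. The cells were stimulated with anti-CD3 at 1 µg/ml and anti-CD28 at 10 µg/ml for 48 hours with 2.5 µM IMD-0354, an inhibitor of the NF-κB pathway, present throughout. No cells without the inhibitor and none without stimulation are among the samples. The age of the mice is not given in the labels. Since the father was always Castaneus, the parent of origin and the strain of an allele cannot be told apart, and a Castaneus read is called paternal here in that sense.

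Imprinted genes are transcribed mainly or wholly from the allele of a given parent. The choice is set in the germ line, mostly by DNA methylation at an imprinting control region, and is held through later cell divisions by factors that keep the mark on the same allele. Many imprinted genes act in fetal and placental growth and fall quiet in adult blood cells. Some are imprinted in a few tissues only, such as brain or placenta, or from some of their promoters only, and are read from both alleles elsewhere.

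The imprinted genes fell into a silent group, a group read from the parent their imprint predicts, and a group read about equally from both. The silent group overlaps the group read from the predicted parent. By the mean RPKM (reads per kilobase of gene scaled to the size of the library, so that levels of different genes can be compared), 22 of the 44 were under 0.1 and are called silent, 6 lay between 0.1 and 1, and 16 were at 1 or more. Of all autosomal genes 64.3% were under 0.1 RPKM, and among autosomal protein-coding genes 44.1%. An allelic share needs reads that cover a difference between the strains, and 25 of the 44 genes had a mean of at least 10 such reads per replicate. Among them 4 genes (Snhg14, Mest, Sgce and Peg10) were also silent by RPKM and are counted in both groups. Of these 25 genes, 10 were called on the side of their known parent and 1 on the opposite side, against 9.52% of 15006 autosomal genes called Castaneus-high and 11.4% called C57BL/6-high (edgeR's quasi-likelihood test of Castaneus against C57BL/6 reads in the same libraries, FDR of 5%). In 8 of the 10 at least 90% of the reads came from the known parent. Calls with so large a share made up 1.83% of the autosomal genes for Castaneus and 1.25% for C57BL/6. Of the other 14 genes, 8 were near-equal, which means not called and with 30% to 70% of reads from Castaneus, and 6 had nearly all reads from their known parent but were not called.

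**Figure D1:**
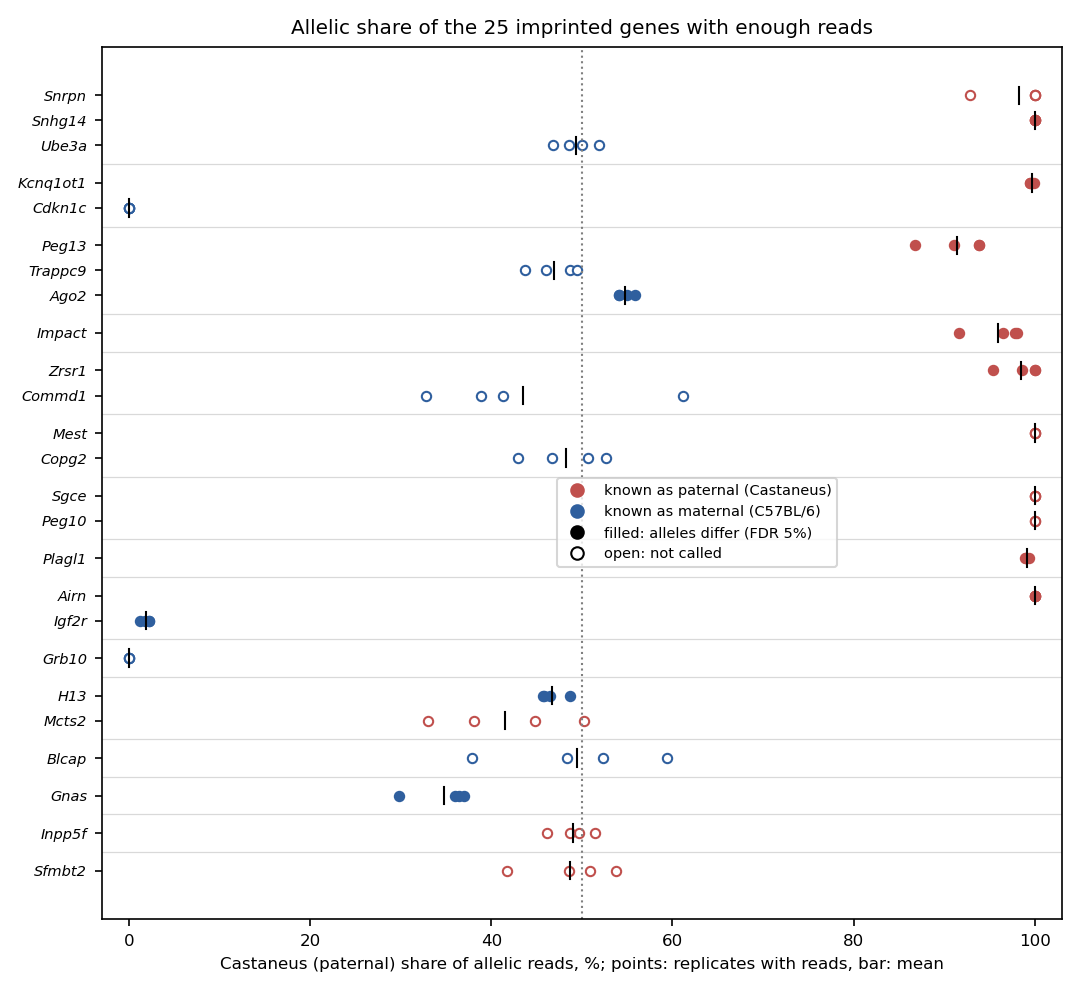
The Castaneus (paternal) share of allelic reads in percent, on the horizontal axis, for the 25 genes with a mean of at least 10 allelic reads, 1 point per replicate with reads and a bar at the mean, ordered by domain. Kcnq1ot1, Plagl1, Airn and Snhg14 sit at the right edge, Igf2r, Cdkn1c and Grb10 at the left edge, and Ube3a, Copg2, Inpp5f and Sfmbt2 near 50%.

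The genes differ in how widely their imprint is known to act. For 32 genes imprinted expression is known from many tissues, and 14 of them had enough reads. In 13 of these 14 at least 90% of the reads summed over the replicates came from the known parent, the exception being Mcts2, and 8 were called on that side. Of all autosomal genes tested, 3.54% had at least 90% of their summed reads from Castaneus and 3.15% from C57BL/6. Of the 13 genes, 5 had a mean of 10 to 30 reads, where so large a share was more frequent among all genes (11.9% for Castaneus and 12.6% for C57BL/6). For the other 12 genes imprinting is known to be limited to some tissues or transcripts, or to change parent between tissues. Of these, 11 had enough reads, 2 were called on the known side, and 1, Grb10, had at least 90% of its reads from that side. By level, 21 of the 32 widely imprinted genes were silent and 7 stood at 1 RPKM or more, against 1 and 9 of the 12 others. The grouping follows general knowledge of each gene and was not tested. It was made with earlier results of these data known, so the contrast between the groups is a description and no independent prediction.

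The sequence around the start site is printed for 7 of the genes on which the results turn, each with a single window. Genes with several windows, such as Gnas, or with none, such as Peg13 and Impact, are left out. A start window need not hold the imprinting control region. Kcnq1ot1, Plagl1, Zrsr1 and Airn were read from the father's allele and Igf2r from the mother's. The reads counted for Mcts2 and H13 came from both. The windows are those of RefSeq on GRCm38.p6, the same assembly as mm10, from 250 bases before the start to 50 after it, written 5′ to 3′ on the strand of the gene. Capitals mark CG dinucleotides, the sites at which mammalian DNA is methylated.
Kcnq1ot1, chr7:143296498-143296797, - strand: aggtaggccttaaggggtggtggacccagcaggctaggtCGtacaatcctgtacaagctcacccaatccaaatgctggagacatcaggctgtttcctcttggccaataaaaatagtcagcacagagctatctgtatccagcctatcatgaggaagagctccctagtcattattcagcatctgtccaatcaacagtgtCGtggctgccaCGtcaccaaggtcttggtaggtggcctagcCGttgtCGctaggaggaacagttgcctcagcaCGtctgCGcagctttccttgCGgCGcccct
Plagl1, chr10:13090582-13090881, + strand: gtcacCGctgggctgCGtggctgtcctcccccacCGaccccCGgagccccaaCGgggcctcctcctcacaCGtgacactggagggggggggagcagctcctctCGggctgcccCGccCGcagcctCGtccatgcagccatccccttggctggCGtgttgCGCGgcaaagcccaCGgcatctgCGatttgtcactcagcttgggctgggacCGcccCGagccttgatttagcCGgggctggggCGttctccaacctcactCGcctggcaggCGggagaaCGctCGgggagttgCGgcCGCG
Zrsr1, chr11:22971755-22972054, + strand: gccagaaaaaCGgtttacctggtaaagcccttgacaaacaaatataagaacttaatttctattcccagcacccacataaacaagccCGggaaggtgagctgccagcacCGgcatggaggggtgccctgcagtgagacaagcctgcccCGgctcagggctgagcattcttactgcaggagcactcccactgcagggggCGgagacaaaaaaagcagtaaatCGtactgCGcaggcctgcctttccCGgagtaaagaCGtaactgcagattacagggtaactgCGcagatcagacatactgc
Airn, chr17:12741061-12741360, + strand: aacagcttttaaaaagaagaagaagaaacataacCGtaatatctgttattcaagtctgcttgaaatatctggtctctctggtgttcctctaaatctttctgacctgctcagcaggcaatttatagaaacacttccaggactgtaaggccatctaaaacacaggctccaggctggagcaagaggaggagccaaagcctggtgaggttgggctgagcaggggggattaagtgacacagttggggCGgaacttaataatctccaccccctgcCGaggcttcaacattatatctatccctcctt
Igf2r, chr17:12769657-12769956, - strand: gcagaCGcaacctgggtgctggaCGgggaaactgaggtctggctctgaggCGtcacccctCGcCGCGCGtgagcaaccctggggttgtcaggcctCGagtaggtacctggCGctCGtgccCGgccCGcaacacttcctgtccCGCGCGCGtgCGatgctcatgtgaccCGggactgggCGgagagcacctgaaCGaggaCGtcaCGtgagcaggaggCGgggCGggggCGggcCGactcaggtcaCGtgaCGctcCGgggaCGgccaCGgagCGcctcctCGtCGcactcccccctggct
Mcts2, chr2:152686898-152687197, + strand: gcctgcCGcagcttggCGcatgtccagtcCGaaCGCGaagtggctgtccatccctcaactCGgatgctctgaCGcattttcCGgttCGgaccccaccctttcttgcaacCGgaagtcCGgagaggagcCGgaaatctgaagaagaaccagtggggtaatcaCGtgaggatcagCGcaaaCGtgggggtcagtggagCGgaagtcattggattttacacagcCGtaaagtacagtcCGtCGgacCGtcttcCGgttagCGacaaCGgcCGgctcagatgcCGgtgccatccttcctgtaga
H13, chr2:152669211-152669510, + strand: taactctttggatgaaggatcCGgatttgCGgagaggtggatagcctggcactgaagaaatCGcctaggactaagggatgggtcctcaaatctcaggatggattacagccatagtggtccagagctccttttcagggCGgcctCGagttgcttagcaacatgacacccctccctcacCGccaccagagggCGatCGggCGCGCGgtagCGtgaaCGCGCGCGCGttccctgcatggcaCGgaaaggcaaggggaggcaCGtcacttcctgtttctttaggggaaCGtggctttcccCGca
The Igf2r window held 34 CG dinucleotides, a number reached by 7.73% of the 32851 windows in the table, and the Airn window 3, reached by 76.7%. Plagl1 had 26 (16.9% of windows have as many), Mcts2 25 (18.4%) and H13 21 (24.8%). Zrsr1 had 10 (43.5%) and Kcnq1ot1 9 (45.8%), against a median of 7. The hexamer TGCCGC, a letter match to the core bound by ZFP57, was searched on both strands (as TGCCGC or GCGGCA) and always contains a CG. It occurred once each in the windows of Plagl1 and Mcts2, in none of the other 5 windows, and in 11.6% of all windows. The 34 members found in the table had 49 windows, some shared between genes, and 14 of the 49 (28.6%) held the hexamer. Among the 14 were overlapping windows of Mest and the same window listed for both Snrpn and Snurf. The windows were not matched to all windows by their number of CG. This is a description of the letters, with no test.

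Of the 4 members of the Kcnq1ot1 domain of chromosome 7, the noncoding RNA alone stood above 1 RPKM, while neighbours within 250 kb such as Nap1l4 at 30.4 and Cars at 28.3 RPKM stood higher. Kcnq1ot1 (ENSMUSG00000101609, chr7:143203458-143296549, mm10) is an antisense RNA made within Kcnq1 on the paternal chromosome, where it silences neighbouring genes in cis. It had 14514, 15640, 15178 and 15099 Castaneus reads in replicates 1 to 4, against 52, 76, 10 and 78 C57BL/6 reads. The Castaneus share was 99.6% ± 0.204 (SD, n = 4), with exact Clopper-Pearson 95% intervals from 99.4% to 99.97% over the replicates. The log2 ratio of Castaneus to C57BL/6 was 8.19 with a standard error of 0.27 (edgeR, adjusted p = 4.32e-10), and the gene was called in each of 11 alternatives. Its level was 3.12 ± 0.333 RPKM (SD, n = 4).

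The maternal genes of this domain among the 44 were low or silent. Others of chromosome 7 listed as maternal among the further imprinted genes below stood on both sides. Nap1l4, Cd81, Tssc4, Tspan32 and Osbpl5, within 250 kb of a member of this domain, stood at 30.4, 10.4, 9.63, 9.20 and 1.41 RPKM. Kcnq1 and Ascl2 stood at 0 and 0.0138 RPKM. Cdkn1c (ENSMUSG00000037664, chr7:143458339-143461050), which encodes the cyclin-dependent kinase inhibitor p57, had 0 Castaneus reads in every replicate, against 22, 16, 14 and 30 C57BL/6 reads, at 0.519 ± 0.0780 RPKM (SD, n = 4). With 3 counts as the limit for a count of 0, the Castaneus share could be as high as 3.66% of the 82 reads. Cdkn1c was not called (edgeR, adjusted p = 0.0825), with 3 of 10 alternatives calling it. Phlda2, which limits placental growth, had 12 allelic reads in all, every one in replicate 4, at 0.195 ± 0.112 RPKM, and Slc22a18, a transporter gene, had none at 0.0674 ± 0.0880 RPKM (SD, n = 4). The share of Kcnq1ot1 exceeded that of Cdkn1c by 99.6 percentage points ± 0.204 (SD, n = 4). The exact two-sided sign-flip test gave p = 0.125, the smallest that 4 replicates allow.

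Igf2r and Airn, which overlap on opposite strands of chromosome 17, were read from opposite parents. Igf2r (ENSMUSG00000023830, chr17:12682406-12769664) encodes the receptor that carries IGF2 to the lysosome. Airn (ENSMUSG00000078247, chr17:12741311-12860136) is the paternal noncoding RNA that represses Igf2r in cis. Igf2r had 34, 69, 88 and 68 Castaneus reads against 2849, 3018, 3831 and 3726 C57BL/6 reads in replicates 1 to 4, a Castaneus share of 1.86% ± 0.502 (SD, n = 4). Its log2 ratio was -5.70 with a standard error of 0.15 (edgeR, adjusted p = 5.06e-11). Airn had 58, 150, 70 and 128 Castaneus reads and 0 C57BL/6 reads in every replicate, so that C57BL/6 could hold at most 0.739% of the 406 reads. Counting each read as independent, it was at least 135-fold higher from Castaneus, with 3 counts over the 4 replicates as the floor (edgeR, adjusted p = 0.000336). The Airn reads stand for an estimated 34.9 molecules (reads per molecule are described below), so these limits are wider on that scale. With reads divided by reads per molecule its log2 ratio was 6.16, against 9.66. The annotation gives the genes no shared exon bases, and both were called in every alternative that tested them. The levels were 0.458 ± 0.136 RPKM for Airn and 13.4 ± 1.59 RPKM for Igf2r (SD, n = 4).

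Plagl1 and Impact were each read almost wholly from the father's allele. Plagl1 (ENSMUSG00000019817, chr10:13060504-13131694), a zinc finger transcription factor that restrains proliferation, had 1234, 1271, 1462 and 1350 Castaneus reads against 12, 12, 16 and 9 C57BL/6 reads. Its share of 99.1% ± 0.178 (SD, n = 4) varied least of the called genes with reads from both alleles, and its level was 2.72 ± 0.294 RPKM. Impact (ENSMUSG00000024423, chr18:12955852-12992950), which encodes an inhibitor of the amino acid sensor kinase GCN2, was the most abundant of the monoallelic genes at 28.2 ± 1.77 RPKM (SD, n = 4). It had 3730, 3858, 4212 and 4564 Castaneus reads against 342, 88, 152 and 90 C57BL/6 reads. The Castaneus share of Impact was 91.6% in replicate 1 and 96.5% to 98.1% in the other 3. The log2 ratios were 6.78 with a standard error of 0.19 for Plagl1 and 4.79 with a standard error of 0.29 for Impact (edgeR, adjusted p = 9.99e-11 and 1.21e-07).

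Zrsr1 was paternal while Commd1, the gene it lies in, was read from both alleles. Zrsr1 (ENSMUSG00000044068, chr11:22972005-22976496), a splicing factor retrogene copied from X-linked Zrsr2, had 454, 364, 666 and 687 Castaneus reads against 22, 0, 0 and 10 C57BL/6 reads. Its share was 98.5% ± 2.18 (SD, n = 4) and its log2 ratio 6.32 with a standard error of 0.65 (edgeR, adjusted p = 1.47e-05). Zrsr2 had 0 Castaneus and 7797 C57BL/6 reads over the 4 replicates, and the handling of reads that match both copies is not stated. Zrsr1 stood at 5.58, 6.27, 6.82 and 10.6 RPKM in replicates 1 to 4.

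Commd1 (ENSMUSG00000051355, chr11:22896136-22982382), a gene of copper handling and of NF-κB turnover that is known to lean maternal in brain, had Castaneus shares of 32.7%, 61.2%, 41.3% and 38.9%. Replicate 2 alone was above 50%. It also had the highest Commd1 level, 1.12 RPKM against 0.380 to 0.547 in the others, and the most reads per molecule by the estimate given below, 22.6. Of the 4 myeloid markers, Lyz2 (74.4 RPKM against 18.8 to 44.7), Itgam and Adgre1 were highest in replicate 2. Csf1r was highest in replicate 1, at 0.891 RPKM against 0.878 in replicate 2. The part of other cells or of clumped reads in the Commd1 share of replicate 2 was not tested. Commd1 was not called (log2 ratio -0.35, standard error 0.43, edgeR, adjusted p = 0.651), nor without replicate 2 (log2 ratio -0.71, adjusted p = 0.359). Zrsr1 and Commd1 share 412 exon bases on opposite strands, and whether strand was used in counting is not given. Even so the Zrsr1 share exceeded the Commd1 share by 38.8 to 62.6 percentage points in the 4 replicates (exact two-sided sign-flip p = 0.125).

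In the Peg13 domain of chromosome 15 the noncoding RNA was paternal while Trappc9 was near-equal and Ago2 leaned to the same side as Peg13. Peg13 (ENSMUSG00000106847, chr15:72805600-72810324) is a noncoding RNA from an intron of Trappc9 whose start lies in the domain's methylated region. It had 1880, 1380, 1739 and 1444 Castaneus reads against 185, 210, 114 and 95 C57BL/6 reads, a share of 91.4% ± 3.33 (SD, n = 4). The log2 ratio was 3.48 with a standard error of 0.20 (edgeR, adjusted p = 5.73e-08), at 4.31 ± 0.334 RPKM. Of the 7 other genes with a call and at least 90% from their known parent none had a mean so near to 90%, and the Peg13 share of replicate 2, 86.8%, was below it. Peg13 lies on the same strand as Trappc9, and unspliced Trappc9 reads were not separated from it here. The part of such reads in the Peg13 share was not tested. Trappc9 (chr15:72589620-73061204), which encodes a vesicle tethering subunit and is maternally biased in brain, had a Castaneus share of 47.0% ± 2.61 (SD, n = 4) and was not called (adjusted p = 0.335).

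Ago2 (ENSMUSG00000036698, chr15:73095844-73184935), the slicing Argonaute of RNA interference, was the most abundant of all 44 genes at 65.8 ± 4.36 RPKM and leaned away from its known brain bias. It had 21100, 20127, 24752 and 21515 Castaneus reads against 17920, 15931, 20226 and 18270 C57BL/6 reads, with shares of 54.1% to 55.8%. The log2 ratio of 0.30, with a standard error of 0.03, was called towards Castaneus (edgeR, adjusted p = 2.04e-05) and in each of 11 alternatives. Of all autosomal genes tested, 9.52% were called Castaneus-high. Kcnk9, a potassium channel gene, had 4 allelic reads and 0.00743 ± 0.0149 RPKM (SD, n = 4).

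**Figure D2:**
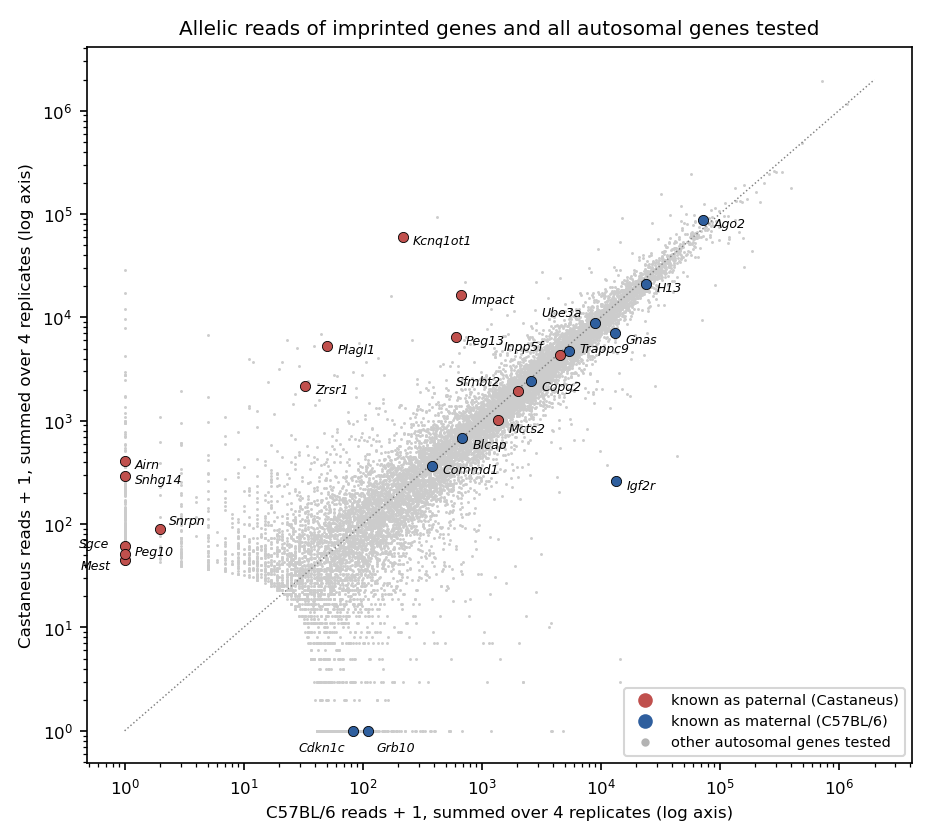
Reads of the Castaneus allele (vertical) and of the C57BL/6 allele (horizontal), summed over the 4 replicates plus 1 on log axes, for the 25 imprinted genes and, in grey, the other autosomal genes tested. Kcnq1ot1, Impact, Peg13, Plagl1 and Zrsr1 lie far above the dotted line of equal reads and Igf2r far below it, and grey points show that other autosomal genes were read from a single allele too.

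In the Prader-Willi/Angelman domain of chromosome 7, Snhg14 was read from the father's allele, Snrpn had 88 of its 89 reads from it, and Ube3a was read from both. Snhg14 (ENSMUSG00000100826, chr7:59307924-59975759) is the long host transcript of the domain's small nucleolar RNAs, and in neurons its end runs antisense to Ube3a. It had 72, 50, 94 and 74 Castaneus reads and no C57BL/6 read, so that C57BL/6 could hold at most 1.03% of the 290 reads. Counting each read as independent, it was at least 96.7-fold higher from Castaneus (edgeR, adjusted p = 0.00164). The Snhg14 reads stand for an estimated 26.1 molecules (reads per molecule are described below), so these limits are wider on that scale. With reads divided by reads per molecule its log2 ratio was 5.68, against 9.19. The level of Snhg14, 0.0381 ± 0.0147 RPKM over a long gene, is in the silent range. Snrpn (ENSMUSG00000102252, chr7:59982495-60140219), which encodes the SmN splicing protein, had 35, 13, 9 and 31 Castaneus reads against 0, 1, 0 and 0 C57BL/6 reads, at 0.253 ± 0.124 RPKM (SD, n = 4). It was not called (adjusted p = 0.0802), though 4 of 10 alternatives called it towards Castaneus. Gm38393, which shares 589 exon bases with Snrpn on the same strand, had 188 Castaneus and 0 C57BL/6 reads. Reads of these overlapping genes were not separated here, and Snurf, all of whose 216 exon bases lie in Snrpn, was listed at 0. Gm44829, which lies within Snhg14 on the opposite strand, stood higher than either at 0.988 RPKM and was not called, with Castaneus shares of 31.9% to 64.7% over the replicates and a mean of 51.0%.

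Ube3a (ENSMUSG00000025326, chr7:59228750-59311536), the ubiquitin ligase gene that is maternal in neurons, was near-equal at 10.0 ± 0.330 RPKM. Its Castaneus share was 46.8%, 50.1%, 51.9% and 48.6% in replicates 1 to 4 (edgeR, log2 ratio -0.01, standard error 0.08, adjusted p = 0.932). Snhg14 shares 1803 exon bases with Ube3a on the opposite strand, and its share was 48.1 to 53.2 percentage points above that of Ube3a (exact two-sided sign-flip p = 0.125). Ndn, a MAGE family gene, had 20 reads, all from Castaneus in replicate 3, at 0.0264 ± 0.0278 RPKM. Peg12 had 2 reads at 0.00730 ± 0.0146 RPKM (SD, n = 4), and Magel2 was listed at 0.

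Gnas was biased to the mother's allele without being monoallelic. Gnas (ENSMUSG00000027523, chr2:174284320-174346744) encodes the stimulatory G protein alpha subunit and, from upstream promoters, products that are wholly maternal or wholly paternal. All were counted as the same gene here. It had 1492, 1501, 1997 and 2000 Castaneus reads against 3506, 2621, 3548 and 3405 C57BL/6 reads, at 28.4 ± 2.01 RPKM (SD, n = 4). The Castaneus share was 29.9% in replicate 1 and 36.0% to 37.0% in the others, all 4 below equality. The log2 ratio of -0.88, with a standard error of 0.09, was called (edgeR, adjusted p = 1.02e-05) and in 11 of 11 alternatives. Nespas, the paternal antisense RNA of this locus, had 46, 35, 16 and 13 Castaneus reads and no C57BL/6 read (adjusted p = 0.0438). Gnas and Nespas share 988 exon bases on opposite strands. Ctsz lies 80.7 kb from Gnas and is in neither list of imprinted genes. It had nearly the same share as Gnas, 34.2% ± 1.88 (SD, n = 4), and was called too (edgeR, log2 ratio -0.92, standard error 0.09, adjusted p = 8.24e-06). Slmo2 and Atp5e were also called towards C57BL/6, with 39.9% and 40.6% from Castaneus. Of 7 genes tested within 250 kb of Gnas, these 3 were called towards C57BL/6 and 1, Nespas, towards Castaneus.

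The reads counted for H13 and Mcts2 on chromosome 2 came from both alleles. Mcts2 (ENSMUSG00000042814, chr2:152687035-152687946) is a retrogene of X-linked Mcts1 inside an intron of H13, and is known to be made from the paternal allele. It had 232, 179, 387 and 214 Castaneus reads against 286, 364, 384 and 348 C57BL/6 reads, shares of 33.0% to 50.2%, at 17.7 ± 2.58 RPKM. It was not called (edgeR, log2 ratio -0.48, standard error 0.23, adjusted p = 0.177), with adjusted p = 0.126 to 0.466 over 11 alternatives. Mcts1 stood at 8.68 ± 1.48 RPKM (SD, n = 4) with 0 allelic reads. The copies resemble each other and the placing of shared reads is not given. Mcts2 also lies on the same strand as H13, and unspliced H13 reads were not separated from it here. The Mcts2 values are therefore uncertain, and the part of such reads in them was not tested.

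H13 (ENSMUSG00000019188, chr2:152669461-152708670), which encodes a signal peptide peptidase, had 4908, 4950, 6221 and 5120 Castaneus reads against 5807, 5880, 6557 and 5902 C57BL/6 reads. Its share of 46.7% ± 1.39 (SD, n = 4) passed towards C57BL/6, the side of its known maternal transcripts (edgeR, log2 ratio -0.17, standard error 0.05, adjusted p = 0.0362). Only 6 of 11 alternatives kept the call. It was lost with TMM factors (adjusted p = 0.116), without the replicate block (adjusted p = 0.220) and without replicate 1, 2 or 4 (adjusted p = 0.141, 0.0611 and 0.125), with 0.0177 as the lowest. The share of Mcts2 was higher than that of H13 in 1 of 4 replicates (exact two-sided sign-flip p = 0.375).

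Grb10, Mest, Sgce and Peg10 had few reads, all of them from the known parent. Grb10 (chr11:11930508-12038683), an adaptor of the insulin receptor that is maternal in most tissues and paternal in neurons, had 0 Castaneus reads and 52, 0, 26 and 32 C57BL/6 reads, at 0.197 ± 0.0791 RPKM (SD, n = 4). Castaneus could hold at most 2.73% of these 110 reads. Mest (chr6:30723547-30748465), a hydrolase-like gene, had 14, 0, 8 and 22 Castaneus reads and no C57BL/6 read. Sgce (chr6:4674350-4747207), which encodes epsilon-sarcoglycan, had 26, 0, 24 and 11 Castaneus reads, and its neighbour Peg10 (chr6:4747306-4760517), derived from a retrotransposon, had 38, 0, 0 and 12, both with no C57BL/6 read. Replicate 2 had no allelic read of any of the 4. Mest, Sgce and Peg10 were in the silent range, at 0.0269 ± 0.0231, 0.0269 ± 0.0152 and 0.0768 ± 0.0245 RPKM (SD over the 4 replicates).

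None of these 4 was called (edgeR, adjusted p = 0.0683, 0.229, 0.165 and 0.279 for Grb10, Mest, Sgce and Peg10), and Grb10 was called in 5 of 10 alternatives, among them without replicate 2 (adjusted p = 0.00722). Together with Snrpn and Cdkn1c they make 6 genes with a mean of 10 to 30 reads, each with at least 90% of its reads from the known parent. Of 2117 autosomal genes with as few reads, 11.9% had at least 90% from Castaneus, 12.6% had at least 90% from C57BL/6 and 0.85% were called in either direction. Reads came in clumps: in replicates 1 to 4, 36.4%, 84.2%, 45.2% and 13.5% of the autosomal genes with 20 to 39 reads had reads of a single allele. Taking a clump as a molecule, and both alleles as equally active, gives an estimate of 7.19 (replicate 4) to 22.6 (replicate 2) reads per molecule. On that scale the 82 Cdkn1c reads stand for about 7.89 molecules and the 61 Sgce reads for 5.66. The binomial intervals, limits and fold floors given here count each read as independent and cover counting error only.

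The other genes of imprinting limited to brain, placenta or single transcripts were near-equal. Copg2 (chr6:30747554-30896794), which encodes a coat protein of transport vesicles and overlaps Mest by 912 exon bases on the opposite strand, had Castaneus shares of 42.9% to 52.7% at up to 7.41 RPKM in a replicate. Blcap (chr2:157556362-157571274), host of the silent gene Nnat, had shares of 37.8% to 59.4% at 11.2 ± 0.653 RPKM. Inpp5f (chr7:128611328-128696425), a phosphoinositide phosphatase gene whose retrogene-promoter transcript is paternal in brain, had shares of 46.2% to 51.4% at 5.44 ± 0.703 RPKM. Sfmbt2 (chr2:10370510-10595253), a Polycomb factor imprinted in extraembryonic tissue, had shares of 41.7% to 53.8% at 1.96 ± 0.248 RPKM (SD, n = 4). Replicates of each lay on both sides of 50%, and their log2 ratios of -0.08, -0.01, -0.04 and -0.05 had standard errors of 0.14, 0.30, 0.10 and 0.16 (edgeR, adjusted p = 0.786, 0.993, 0.864 and 0.886).

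**Figure D3:**
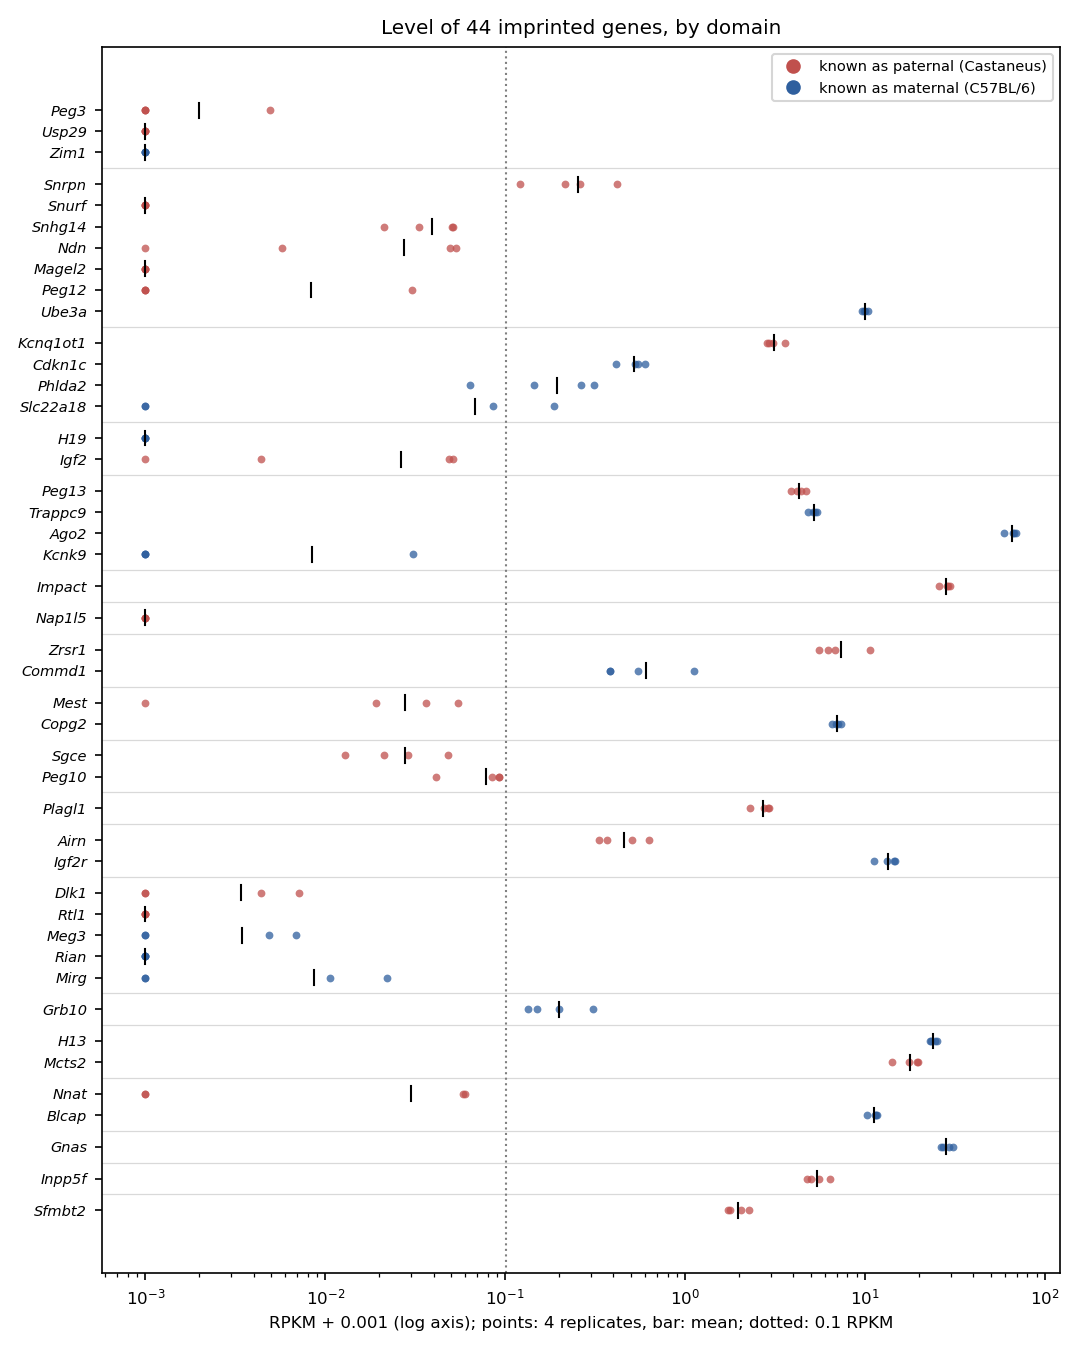
RPKM plus 0.001 on a log axis for all 44 imprinted genes by domain, 1 point per replicate with a bar at the mean and a dotted line at 0.1 RPKM. The Peg3, H19/Igf2, Sgce/Peg10 and Dlk1/Meg3 domains and Nap1l5 lie wholly left of the line, while Ago2 at 65.8, Gnas at 28.4 and Impact at 28.2 RPKM are highest.

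Whole domains were silent, among them Sgce/Peg10, whose few reads are given above. In the Peg3 domain, Peg3, a zinc finger gene, stood at 0.00394 RPKM in replicate 1 and at 0 in the other 3, and Usp29 and Zim1 were listed at 0. In the H19/Igf2 domain the noncoding RNA H19 was listed at 0, and the growth factor gene Igf2 stood at 0.0253 ± 0.0273 RPKM (SD, n = 4) with 2 allelic reads. In the Dlk1/Meg3 domain the Notch ligand relative Dlk1 and the noncoding RNAs Meg3 and Mirg averaged 0.00240 ± 0.00299, 0.00243 ± 0.00292 and 0.00769 ± 0.0101 RPKM (SD, n = 4), and Rtl1 and Rian were listed at 0. Nap1l5, a retrogene inside Herc3, was listed at 0, and Nnat, a proteolipid gene, stood at 0.0574 and 0.0589 RPKM in replicates 1 and 3 and at 0 in the others. In all, 8 of the 44 genes were listed at 0 in every replicate, 11 had no allelic read, and for 8 more the reads were too few for a share. In RNA of a mixed cell preparation such as this, fewer cells of a type and less RNA per cell cannot be told apart.

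Calls were counted around the imprinted genes. Of 100 tested genes within 250 kb of a member, 13 were called towards Castaneus and 11 towards C57BL/6, so that 24 of 100 were called, against 20.9% of all autosomal genes called in either direction. Some of the 100, among them the called genes Nespas, Cd81, Tspan32 and Herc3, are also among the further imprinted genes below and are counted in both places. The count of 24 was 15 without replicate 1 and 14 without replicate 4. Of these 100 genes 7 were called with at least 90% from 1 allele, against 3.08% of all autosomal genes tested, and 4 of the 7 overlap a member. Gm16574 and Gm23833 lie within Airn on its strand and had 100% and 97.2% of their reads from Castaneus, Gm38393 overlaps Snrpn, and Nespas overlaps Gnas. For Gm5687, 56.8 kb from Impact, every read was from Castaneus, at 1.40 ± 1.10 RPKM (SD, n = 4). Gm13835, 245 kb from Copg2, had 4.81% and Gm12058, 109 kb from Commd1, 0.463%. Gm5687, Gm13835, Gm12058 and Gm16574 are annotated as processed pseudogenes. The handling of reads that match other copies is not stated, so their shares are uncertain. Osbpl1a, a lipid-binding protein gene 14 kb from Impact, had 81.9% ± 5.55 from Castaneus (edgeR, log2 ratio 2.24, standard error 0.29, adjusted p = 0.000110). The TNF receptor family genes Tnfrsf23, 163 kb from Phlda2, and Tnfrsf26, nearer to it, had 13.3% ± 3.00 and 28.4% ± 5.94 from Castaneus (SD, n = 4). Their log2 ratios were -2.70 and -1.33 (edgeR, adjusted p = 0.000160 and 2.77e-05). Cd81, on the other side of Kcnq1ot1, had 67.4% ± 3.94 from Castaneus. Among the named flanking genes were also Phactr2 with 68.0%, Ptk2 with 65.0%, Ttc39c with 60.0%, Ctsz with 34.2% and Slmo2 with 39.9%.

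**Figure D4:**
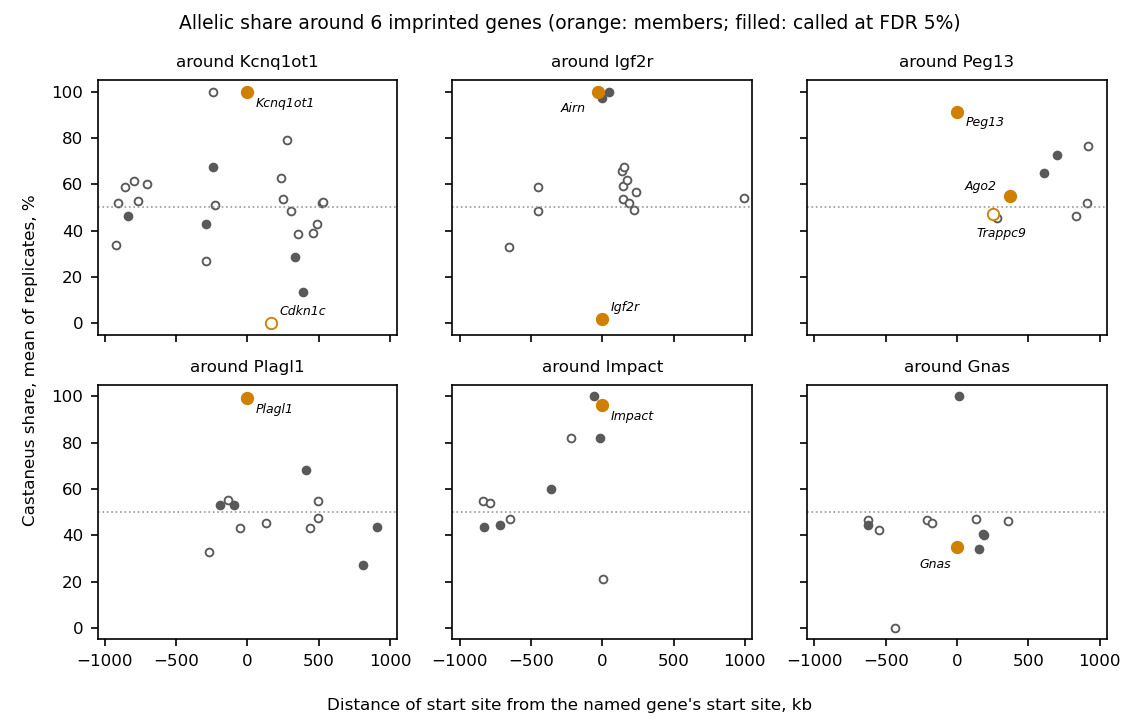
Mean Castaneus share in percent (vertical) of the tested genes within 1000 kb of the start sites of 6 imprinted genes (horizontal, distance in kb), members in orange, other genes in grey, filled where the alleles differed at an FDR of 5%. Kcnq1ot1 at 99.6%, Plagl1 at 99.1%, Impact at 96.0% and Igf2r at 1.86% stand far from the dotted line at 50%, and Osbpl1a at 81.9% lies above it near Impact.

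Of 43 further genes known to be imprinted in some mouse tissue, 25 were under 0.1 RPKM and 23 could be tested. Of these, 6 were called on their known side, 2 on the opposite side and 15 in neither, against 20.9% of all autosomal genes called in either direction, 9.52% towards Castaneus and 11.4% towards C57BL/6. Of the 6, Nespas was the only one with at least 90% from its known parent. Jade1, paternal in early embryos and placenta, had 64.3% ± 3.99 from Castaneus, and the maternal genes Pon2, Tspan32, Atp10a and Herc3 had 38.3% ± 2.20, 42.7% ± 3.67, 42.9% ± 3.02 and 44.4% ± 2.17 (SD, n = 4). Cd81 and Ampd3, known as maternal in placenta, were higher from Castaneus, with 67.4% and 64.9%. The 6 calls on the known side were 3 without the replicate block, without replicate 1 and without replicate 4. The list was described by these counts alone.

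Genes that hold imprints were expressed, with exceptions. Of 13 such genes 11 were at 1 RPKM or more. Trim28, the corepressor that KRAB zinc finger proteins recruit, stood at 58.7 ± 3.79 RPKM, Ctcf, which insulates H19 and Igf2, at 34.4 ± 3.08, and Zfp445, a zinc finger protein that binds imprinting control regions, at 17.2 ± 2.30. Dnmt1, the maintenance methyltransferase, stood at 10.5 ± 0.688 RPKM and Uhrf1, its guide to newly copied DNA, at 4.07 ± 0.348 (SD, n = 4). Zfp57, the other zinc finger protein of imprint maintenance, and the oocyte factor Dppa3 were in the silent range at 0.0906 ± 0.0814 and 0.0309 ± 0.0388 RPKM.

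The libraries held 30539711 to 34992012 allelic reads, and RPKM values correlated with r = 0.970 to 0.986 between replicates over 11070 autosomal genes, on the log2(RPKM + 1) scale. Of autosomal reads 49.6% ± 0.0870 came from Castaneus (SD, n = 4). All 8 T cell markers were at 8.79 RPKM or more. B cell markers were at 0.794 to 2.37 RPKM and myeloid markers at 0.437 to 41.3 RPKM, the highest being Lyz2. Of the 4 stromal and endothelial genes, Col1a1, Col3a1 and Pdgfra were at 0.0665 RPKM or less and Pecam1 at 3.38. The globin genes Hbb-bs and Hba-a1 stood at 2.05 and 1.27 RPKM, and the natural killer cell markers at 0.0895 RPKM or less. The part of these cells in the levels above was not tested.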

How the data were processed

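Total RNA of splenic CD3+ T cells in 4 biological replicates was sequenced after ribosomal RNA depletion with a stranded kit, per the labels' protocols. The authors deposited read counts per gene and allele, whole numbers that are not normalized, and RPKM values with both alleles together, whose scaling total is not stated. The submitters' processing notes name STAR 2.7.1a, featureCounts and mm10. The rule for allele assignment, the treatment of duplicates and the use of strand are not stated either. Per replicate 60.0% to 68.2% of the counts above 0 were even.

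Autosomal genes with a mean of at least 10 allelic reads entered a quasi-likelihood model (edgeR 4.0.16 under R 4.3.3). It held the replicate as a block, both alleles being measured in the same library, and an allele term, with each allele's autosomal total as library size. Ratios were tested against 1, two-sided, with Benjamini-Hochberg adjustment over 15006 genes, and the model was tested on simulated data. Alternatives were TMM factors, DESeq2 1.42.0 (adjusted p left missing where it gave none), other minima, no block, counts divided by estimated reads per molecule, and each replicate left out. Positions came from GENCODE M21, which held 49326 of the 49671 gene IDs. Other steps used Python 3.11.15, numpy 2.4.6, pandas 2.3.3, scipy 1.17.1 and matplotlib 3.10.9. All 44 members are accounted for. Of flanking genes, those called with a mean of at least 100 reads were named, at most 10 by the size of the ratio, and the flanking genes named beyond these were chosen after their values were seen. Nothing says whether the replicates were separate animals or cultures, so p-values measure the spread between these samples. The members, lists and tests were chosen with earlier results of these data known.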

Additional observations from a re-analysis of the deposited data

Results flagged for a closer look

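In 2 of 43.0 sets of 4 replicate values, an extreme replicate stood apart from the other 3 by more than Dixon's 95% critical value, and chance alone would give about 1 in 20. The Castaneus share of Gnas was 29.9% in replicate 1, with 36.4%, 36.0% and 37.0% in replicates 2 to 4, while its RPKM in replicate 1, 26.4, was close to 27.1 in replicate 2. The Castaneus share of Snrpn was 92.9% in replicate 2, which rests on 1 C57BL/6 read among 14, with 100% in the others.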

How the results depend on the processing

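The count of imprinted genes called on their known side was 10 of 25 tested. It was 8 to 13 over the alternatives and 9 to 11 when a replicate was left out. These counts are not of the same number of genes. The 8 were of 16 tested at a minimum of 20 reads and 1 RPKM. With no minimum 12 of 33 were called. The 13 were of 25 in DESeq2, which also called more of all autosomal genes. Ago2 was the only call on the opposite side in each. Kcnq1ot1, Plagl1, Impact, Zrsr1, Peg13, Igf2r, Gnas and Ago2 were called in 11 of 11 alternatives and Airn and Snhg14 in 10 of 10. No called ratio changed direction. Of 15006 autosomal genes DESeq2 called 2395 towards Castaneus and 2322 towards C57BL/6, against 1429 and 1711 in edgeR. It called 40 flanking genes against 24. The flanking count was 13 within 100 kb and 37 within 500 kb. A wider window holds more genes, and the numbers tested in these windows are not given here, so the counts cannot be read as shares. Without the replicate block 3 of the further imprinted genes were called on their known side, against 6. When a replicate was left out, the autosomal genes called towards C57BL/6 numbered 1099 to 1961, the flanking genes called 14 to 28, and the further imprinted genes called on their known side 3 to 6. The count of silent genes was 22, with 20 at a limit of 0.05 RPKM, 26 at 0.5 RPKM and 22 without any replicate. Snrpn, Cdkn1c, Mest, Sgce, Peg10 and Grb10 rest on a mean of 10 to 30 clumped reads, and where a gene has no reads over strain differences its share is unknown. Where the window or the minimum was changed, the number of genes tested changed with it. The causes of the other changes were not tested.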

Other observations

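For 8 imprinted genes the allelic reads were too few for a share. Meg3 had 8 reads, all from Castaneus, in replicate 1 and 11, all from C57BL/6, in replicate 4, and none in the others. Mirg, its neighbour, had 8 Castaneus reads in replicate 1 and 16 C57BL/6 reads in replicate 4. Dlk1 had 4 Castaneus reads in replicate 1, Kcnk9 4 in replicate 3 and Peg12 2 in replicate 4, and Igf2 had 2 C57BL/6 reads in replicate 4. Phlda2 had 4 Castaneus and 8 C57BL/6 reads in replicate 4. Ndn had 20 Castaneus reads in replicate 3. At the estimated reads per molecule these counts stand for 0.278 to 2.93 molecules per gene.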
